A study of Mus musculus with 12 samples.

Results

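The PDGF family and the mural cell genes examined here comprised 10 genes, taken by symbol from the 53801 genes of the deposited matrices: the ligand genes Pdgfa, Pdgfb, Pdgfc and Pdgfd, the receptor genes Pdgfra and Pdgfrb, and the mural cell genes Rgs5, Cspg4, Myh11 and Cnn1. All 10 passed the filter on low counts and were among the 15306 genes tested. RNA-Seq was done on whole hearts of C57BL/6N mice in 3 groups of 4 hearts: sham surgery, day 1 after acute myocardial infarction (AMI) and day 7 after AMI. The sample records describe tying off the left anterior descending coronary artery through a left thoracotomy, and the study's methods place all surgery in male mice aged 10 to 14 weeks. No gene was deleted and no drug was named for any of the 3 groups. Libraries held 23204551 to 32166517 counts. The replicate labels name hearts within a group, and P values test differences between groups with these hearts as replicates.

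PDGFs are dimeric growth factors that act through the receptor tyrosine kinases PDGFRα and PDGFRβ. PDGF-B released by endothelial cells binds PDGFRβ on pericytes and vascular smooth muscle cells, together called mural cells, and holds them at the vessel wall, whereas PDGFRα marks cardiac fibroblasts. PDGF-C and PDGF-D are secreted with a CUB domain that must be cleaved off before they bind a receptor.

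At day 1, Rgs5 and Pdgfd were lower than in sham hearts while Pdgfa, Pdgfc, Pdgfra, Cspg4 and Cnn1 were higher, and at day 7 Pdgfd was above sham and Rgs5 was not called different from sham. In whole hearts, fewer cells of a type and less RNA per cell cannot be told apart. The fall of Pdgfd was called on the TMM scale and not with library sizes alone or on the TPM scales. Rgs5 at day 7 was called higher than in sham with library sizes alone and on the TPM scales. It was also called without sham heart 4 or day 7 heart 1. Changed means a false discovery rate (FDR) under 0.05 in edgeR, and a DEG also had a fold change (FC) of 2 or greater. At day 1 against sham, 5 of 10 members were higher and 2 were lower, against 22.0% and 19.9% of all genes tested. Of these, 1 member, Cnn1, was a DEG that was higher and 0 were DEGs that were lower, against 7.79% and 2.98% of all genes. At day 7 against sham, 6 members were higher and 0 were lower (30.9% and 28.4% of all genes), with 4 DEGs higher (Pdgfc, Pdgfrb, Cspg4 and Cnn1) and 0 lower (15.3% and 5.88%). From day 1 to day 7, 4 members were higher and 1 was lower (24.2% and 22.8%), and 1, Rgs5, was a DEG that was higher, with 0 lower (8.55% and 2.69%). The median log2 FC of the 10 members was 0.40 at day 1 and 0.53 at day 7 against sham and 0.37 between the AMI groups, beside -0.01, 0.03 and 0.02 over all genes. Both comparisons with sham used the same 4 sham hearts.

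**Figure D1:**
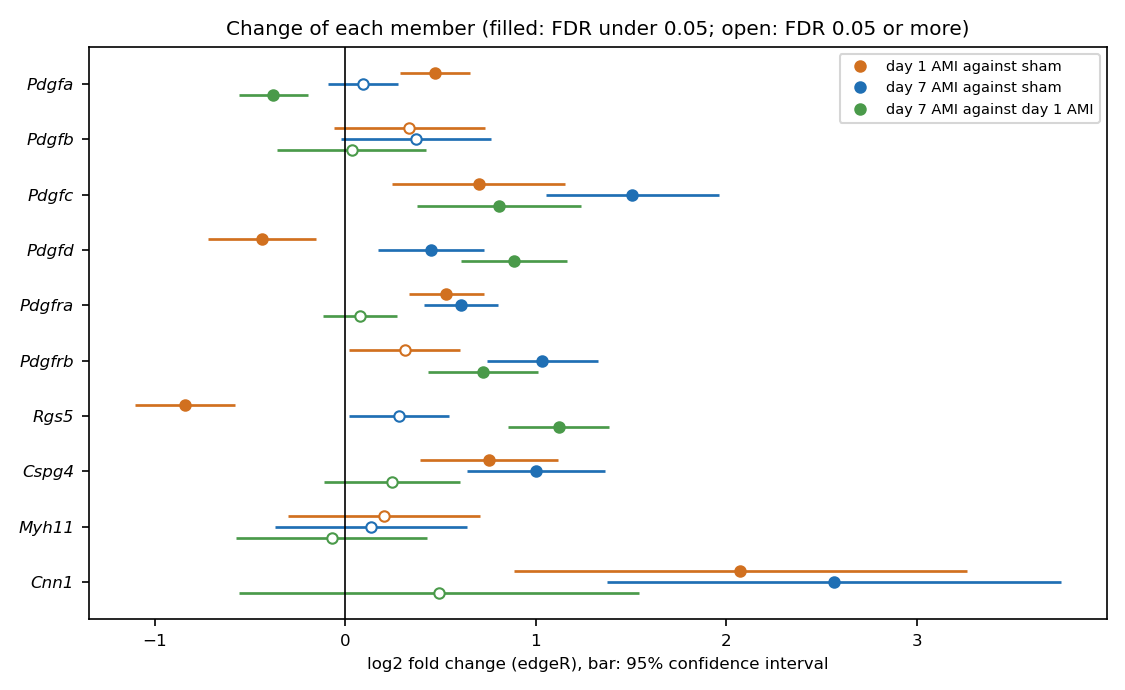
Log2 fold change of the 10 genes (x axis, edgeR) in the 3 comparisons, with bars for the 95% confidence interval; filled points passed an FDR of 0.05. Rgs5 and Pdgfd lie left of 0 at day 1 against sham, and Rgs5 and Pdgfd lie right of 0 between day 7 and day 1.

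The scale of the libraries differed between the groups. TMM factors were 0.781 to 0.917 in sham, 1.01 to 1.06 at day 1 and 1.1 to 1.17 at day 7, and mitochondrial transcripts took 17.9 to 27.4%, 12.1 to 15.9% and 13.2 to 19.2% of the counts. With library sizes alone, a choice made after seeing the data, the median log2 FC of all genes was 0.26, 0.42 and 0.15 for day 1 against sham, day 7 against sham and day 7 against day 1. In the same order it was 0.23, 0.44 and 0.18 on log2(TPM + 1) and 0.31, 0.57 and 0.25 on log2(TPM + 0.1), where TPM are length-scaled transcript levels. Of the genes called at day 1 against sham, 52.5% were higher with TMM, 85.6% with library sizes alone, 89.4% on log2(TPM + 1) and 89.7% on log2(TPM + 0.1). The same shares were 52.1%, 83.2%, 90.4% and 90.9% at day 7 against sham and 51.4%, 68.8%, 81.0% and 82.0% between the AMI groups. Fold changes below are on the TMM scale, and for each gene named below, calls that the other scales end or add are given beside it.

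Pdgfa encodes the ligand that binds PDGFRα (chr5:138976014-138997370, minus strand, GRCm38). In counts scaled by library size and TMM factor (CPM), it was 17.4, 18.1, 15.4 and 15.5 in the 4 sham hearts, 24.6, 24.02, 21.98 and 21.5 at day 1 and 18.7, 18.4, 16.7 and 17.1 at day 7. Every day 1 heart lay above every sham and day 7 heart, while the sham and day 7 hearts overlapped. Pdgfa was higher at day 1 (log2 FC 0.47 ± 0.085 (SE), adjusted P = 0.000696), was not called at day 7 against sham (log2 FC 0.094, adjusted P = 0.365) and was lower at day 7 than at day 1 (log2 FC -0.38, adjusted P = 0.00225). On log2(TPM + 1) the day 7 value against sham was called (0.61, adjusted P = 6.71e-05), as it was on the 2 other scales (adjusted P 6.71e-05 to 0.000424 over the 3), and the call between the AMI groups was lost (-0.14, adjusted P = 0.222; -0.15, adjusted P = 0.251 on log2(TPM + 0.1)). Of the exonic bases of Pdgfa, 26.1% (813 bases) overlap the antisense gene 6330403L08Rik, which held 9005 counts over the 12 hearts. The strand that was counted is not given in the sources used here, so the gene to which reads in the overlap were assigned is not known. The antisense gene read log2 FC 0.0002, adjusted P = 0.998 at day 1 and log2 FC -0.72, adjusted P = 2.05e-05 at day 7 against sham. At day 1 it was higher with library sizes alone (0.27, adjusted P = 0.0423) and on both TPM scales (adjusted P 0.0362 to 0.0408), and the day 7 call was lost on both TPM scales (adjusted P 0.228 to 0.23).

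Pdgfb, the gene of the endothelial ligand for PDGFRβ (chr15:79995874-80014977, minus strand), was the most abundant ligand gene in TPM in all 3 groups. Its CPM was 46.1, 87.4, 61.2 and 43.99 in sham, 81.3, 77.1, 83.3 and 60.2 at day 1 and 85.5, 70.8, 68.1 and 84.8 at day 7. Sham heart 2 was the highest of all 12 hearts, sham hearts 1 and 4 were the lowest, and the groups overlapped. No comparison passed the test (log2 FC 0.34, adjusted P = 0.156 at day 1, log2 FC 0.37, adjusted P = 0.0957 at day 7, log2 FC 0.035, adjusted P = 0.889 between the AMI groups). Without sham heart 2 both values against sham were called (0.58, adjusted P = 0.00572 for day 1 and 0.61, adjusted P = 0.00228 for day 7). They were also called with library sizes alone (0.59, adjusted P = 0.0322 and 0.75, adjusted P = 0.00595) and on both TPM scales (adjusted P 0.0207 to 0.0273 and 0.00181 to 0.00304). The value between the AMI groups changed sign without day 1 heart 4 (-0.062), day 7 heart 1 (-0.018) or day 7 heart 4 (-0.013). Sham heart 2 had the most erythroid transcripts as well, 15180 TPM against 1617 to 3636 in the other sham hearts, and the part of this in the Pdgfb values was not tested.

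Pdgfc, whose product binds PDGFRα after its CUB domain is cleaved (chr3:81036416-81214040, plus strand), was the least abundant member in TPM in every group. Its CPM was 4.33, 3.2, 3.59 and 2.63 in sham, 4.93, 6.83, 5.63 and 4.89 at day 1 and 13.7, 9.31, 7.12 and 8.84 at day 7. The groups formed steps without overlap, and day 7 heart 1 stood highest. Pdgfc rose at day 1 (log2 FC 0.70 ± 0.21 (SE), adjusted P = 0.0168), at day 7 (log2 FC 1.51 ± 0.21 (SE), adjusted P = 3.02e-05) and from day 1 to day 7 (log2 FC 0.81, adjusted P = 0.00455). The day 1 call was lost without sham heart 4 (0.59, adjusted P = 0.0541) and without day 1 heart 2 (0.59, adjusted P = 0.0579). The antisense gene Gm16000 overlaps 2.89% of its exonic bases and held 0 counts.

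Pdgfd, whose product binds PDGFRβ after the same kind of cleavage (chr9:6168584-6378850, plus strand), moved in opposite directions at the 2 times. Its CPM was 12.4, 11.95, 11.1 and 14.2 in sham, 7.99, 7.37, 10.2 and 11.04 at day 1 and 17.4, 18.3, 16.5 and 15.4 at day 7. The 3 groups did not overlap in CPM, although day 1 heart 4 lay next to sham heart 3. Pdgfd fell at day 1 (log2 FC -0.44 ± 0.13 (SE), adjusted P = 0.017) and rose at day 7 (log2 FC 0.45 ± 0.13 (SE), adjusted P = 0.00833), and it rose between the AMI groups (log2 FC 0.89, adjusted P = 0.000101). The day 1 call was lost with library sizes alone (-0.16, adjusted P = 0.343), on log2(TPM + 1) (-0.14, adjusted P = 0.326) and on log2(TPM + 0.1) (-0.17, adjusted P = 0.318). It was also lost without sham heart 4 (-0.37, adjusted P = 0.0578), day 1 heart 1 (-0.38, adjusted P = 0.0558) or day 1 heart 2 (-0.34, adjusted P = 0.0554), which left Rgs5 as the only member lower at day 1. In TPM, sham and day 1 hearts overlapped for Pdgfd.

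**Figure D2:**
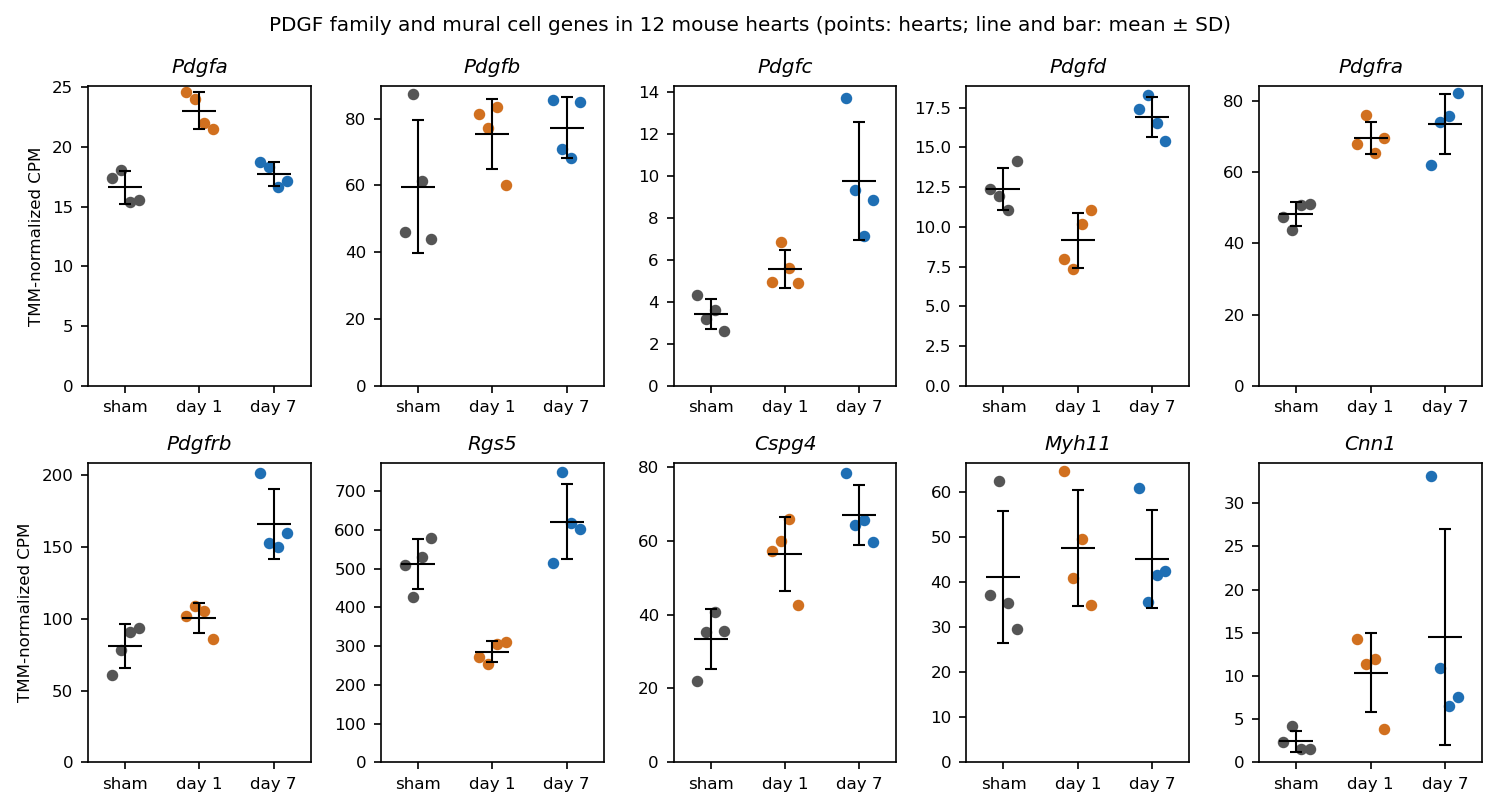
TMM-normalized CPM (y axis, from 0) of each gene in the 4 hearts of each group, with the mean and SD. Rgs5 at day 1 lies between 254 and 311 CPM in every heart, under every sham heart; the 12 Myh11 values overlap between the groups.

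Summed over the 4 ligand genes, TPM were 35.8, 61.04, 45.3 and 35.8 in sham, 69.9, 69.5, 72.4 and 61.98 at day 1 and 93.7, 80.8, 71 and 87.3 at day 7. Every AMI heart lay above every sham heart, on a scale whose median gene also rose. Pdgfb made up 55.6 ± 8.18% (mean ± SD, n = 4) of the sum in sham, 57.8 ± 3.4% at day 1 and 57.5 ± 2.51% at day 7. The share of Pdgfc was 2.82 ± 0.999%, 3.56 ± 0.408% and 6.34 ± 1.24%, and that of Pdgfd 12.8 ± 3.16%, 7.2 ± 1.87% and 12.8 ± 1.3%. Pdgfa made up 28.8 ± 4.63%, 31.5 ± 1.62% and 23.4 ± 1.61%. The shares of Pdgfa, Pdgfb and Pdgfd in sham hearts spread widely; sham heart 2 had the highest Pdgfb share.

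**Figure D3:**
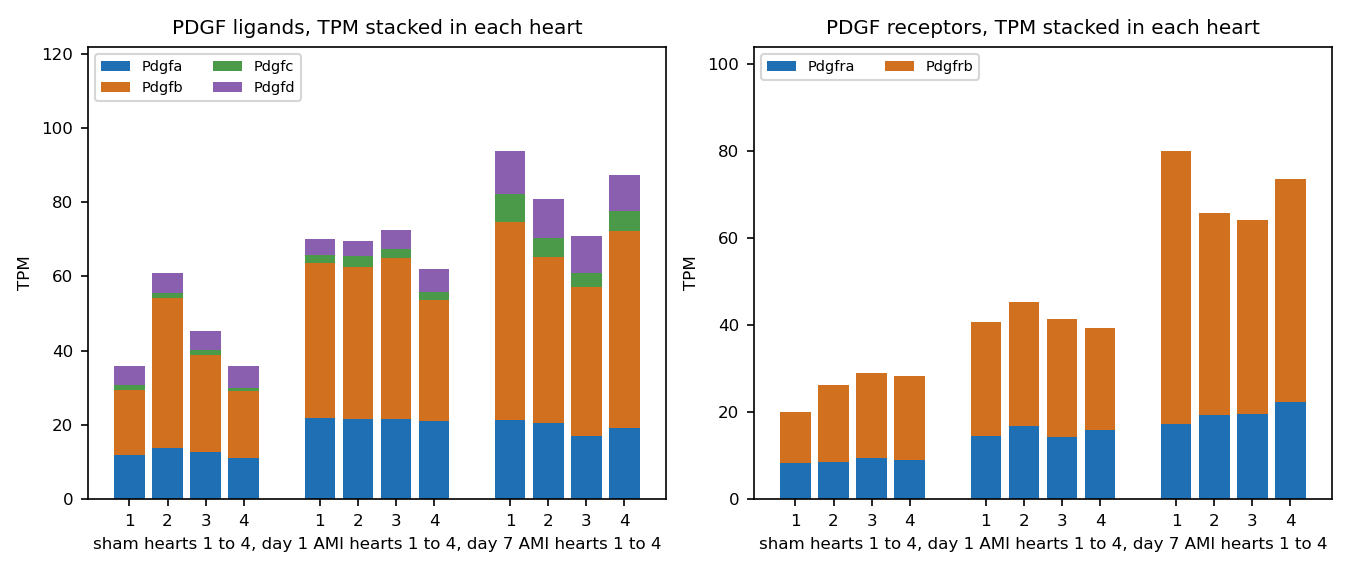
TPM (y axis) of the PDGF ligand genes (left) and receptor genes (right), stacked in each of the 12 hearts, where the bar height is their sum. Pdgfb is the largest ligand segment in every heart and Pdgfrb the larger receptor segment in every heart.

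Pdgfra, the receptor gene carried by cardiac fibroblasts (chr5:75152292-75198215, plus strand), read 47.3, 43.7, 50.9 and 51.1 CPM in sham, 67.8, 75.9, 65.5 and 69.7 at day 1 and 62.1, 74.1, 75.7 and 82.2 at day 7. All AMI hearts lay above all sham hearts, and the AMI groups overlapped. It was higher at day 1 (log2 FC 0.53 ± 0.091 (SE), adjusted P = 0.000487) and at day 7 (log2 FC 0.61 ± 0.091 (SE), adjusted P = 5.66e-05), and the AMI groups were not called different (log2 FC 0.077, adjusted P = 0.508) except on the TPM scales (0.33, adjusted P = 0.0116; 0.35, adjusted P = 0.0172). The genes Gm42802, Gm42803 and Mir7025, which overlap its exons by 456, 166 and 30 bases, held 10, 7 and 0 counts themselves. Pdgfrb, the mural cell receptor gene (chr18:61045150-61085061, plus strand), read 60.6, 78.4, 90.9 and 93.6 CPM in sham, 102, 109, 106 and 85.8 at day 1 and 202, 152, 149.9 and 159 at day 7. The day 7 hearts lay above all others, heart 1 highest, and the sham and day 1 hearts overlapped. Pdgfrb was not called at day 1 (log2 FC 0.31 ± 0.14 (SE), adjusted P = 0.0788) and rose at day 7 against sham (log2 FC 1.04 ± 0.14 (SE), adjusted P = 1.8e-05) and against day 1 (log2 FC 0.72, adjusted P = 0.00062). The day 1 value was called without day 1 heart 4 (0.38, adjusted P = 0.0436), with library sizes alone (0.57, adjusted P = 0.00643) and on both TPM scales (adjusted P 0.006 to 0.00883). Of the TPM of both receptor genes, Pdgfrb made up 65.5 ± 4.59% (mean ± SD, n = 4) in sham, 63.1 ± 2.6% at day 1 and 72.1 ± 4.23% at day 7.

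Rgs5, a regulator of G protein signalling and a pericyte marker (chr1:169655501-169695813, plus strand), was the most abundant member in TPM in all 3 groups. Its CPM was 509, 427, 530.5 and 579.9 in sham, 272, 254, 307 and 311 at day 1 and 515, 749, 619 and 603 at day 7. All day 1 hearts lay below all others, and sham and day 7 hearts overlapped. Rgs5 fell at day 1 (log2 FC -0.84 ± 0.12 (SE), adjusted P = 0.000161) and rose from day 1 to day 7 (log2 FC 1.12 ± 0.12 (SE), adjusted P = 8.96e-06). At day 7 against sham it was not called (log2 FC 0.28 ± 0.12 (SE), adjusted P = 0.0605), but it was called without sham heart 4 (0.34, adjusted P = 0.0381) or day 7 heart 1 (0.36, adjusted P = 0.0204). It was also called with library sizes alone (0.68, adjusted P = 0.000174) and on both TPM scales (adjusted P 6.11e-05 to 0.000149). The day 1 value was -0.56 with library sizes alone and -0.51 on log2(TPM + 1).

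Cspg4 encodes the NG2 proteoglycan, carried by pericytes (chr9:56865033-56899870, plus strand). It read 22.01, 35.2, 40.8 and 35.4 CPM in sham, 57.2, 60.0, 65.8 and 42.5 at day 1 and 78.3, 64.2, 65.6 and 59.5 at day 7, so that all AMI hearts lay above all sham hearts, with sham heart 1 lowest. Cspg4 rose at day 1 (log2 FC 0.76 ± 0.17 (SE), adjusted P = 0.00292) and at day 7 (log2 FC 1.00 ± 0.17 (SE), adjusted P = 0.000156), and the AMI groups were not called different (log2 FC 0.25, adjusted P = 0.238). With its FC of 2 and that of Pdgfrb of 2.05, both lay at the edge of the DEG rule: the members that were DEGs at day 7 numbered 2 without sham heart 1 and 2 without day 7 heart 1, 3 without day 1 heart 1 and 3 without day 1 heart 4, 3 with DESeq2, 3 with RLE size factors, 3 with only the groups compared, and 5 with library sizes alone and on each TPM scale. Over all genes, DEGs higher at day 7 against sham numbered 2346 on the TMM scale. They numbered 2567 with DESeq2, 2287 with RLE size factors and 2233 with only the groups compared. With library sizes alone they numbered 3633, on log2(TPM + 1) 2668 and on log2(TPM + 0.1) 4147. Myh11, the smooth muscle myosin heavy chain (chr16:14194535-14291372, minus strand), read 37.2, 62.5, 35.3 and 29.6 CPM in sham, 64.7, 41.1, 49.5 and 35.1 at day 1 and 60.9, 35.5, 41.7 and 42.6 at day 7. A single heart in each group (sham heart 2, day 1 heart 1 and day 7 heart 1) stood above the rest, and the groups overlapped. No comparison of Myh11 passed the test (log2 FC 0.21, adjusted P = 0.508 at day 1, log2 FC 0.13, adjusted P = 0.645 at day 7, log2 FC -0.072, adjusted P = 0.822 between the AMI groups). On the TPM scales it was called at day 7 against sham (0.65, adjusted P = 0.0235; 0.72, adjusted P = 0.029). Its sign at day 7 against sham turned without day 7 heart 1 (-0.045). Between the AMI groups it turned with library sizes alone (0.060), on log2(TPM + 1) (0.16), and without day 1 heart 1 (0.11) or day 7 heart 2 (0.026).

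Cnn1, the gene of the actin-binding protein calponin, found in contractile smooth muscle (chr9:22099216-22109630, plus strand), had the largest fold changes against sham of the 10 members. It read 2.4, 4.19, 1.6 and 1.53 CPM in sham, 14.3, 11.4, 12.01 and 3.82 at day 1 and 33.1, 10.9, 6.53 and 7.55 at day 7. Day 1 heart 4 lay below sham heart 2, day 7 heart 1 lay far above the rest, and sham and day 7 hearts did not overlap. Cnn1 rose at day 1 (log2 FC 2.07 ± 0.55 (SE), adjusted P = 0.00851) and at day 7 (log2 FC 2.57 ± 0.56 (SE), adjusted P = 0.00114), and the AMI groups were not called different (log2 FC 0.49 ± 0.49 (SE), adjusted P = 0.431). Without day 7 heart 1 that last value turned (-0.32, adjusted P = 0.531), and the day 7 value against sham was 1.76, adjusted P = 0.00287. Its counts and TPM did not keep 1 ratio: sham hearts 1 and 2 held 46 and 102 counts and 2.79 and 2.99 TPM.

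Promoters of 7 of the 10 members (8 promoters) were matched in RefSeq (GRCm38.p6), each 300 bases long around the start of transcription; Pdgfb, Pdgfrb and Myh11 were not in the supplied set of promoters. The 8 promoters were searched on both strands for the CArG box, which serum response factor binds in smooth muscle genes, and for GTGGGAA, the core bound by RBPJ in Notch signalling. The CArG box was found in 1 promoter, that of Pdgfc, and in 1.63% of all 32851 promoters, and GTGGGAA in 0 of the members' promoters and 6.38% of all. The Pdgfc promoter (chr3:81036166-81036465, plus strand) is shown with the match in capitals, which begins at position -17 from the start; the promoters of Cnn1 (chr9:22099003-22099302, plus strand), with the largest rise, and of Rgs5 (chr1:169655251-169655550, plus strand) and Pdgfd (chr9:6168236-6168535, plus strand), the members lower at day 1, hold no match and stand in lower case. A match is a description of the letters only.
Pdgfc: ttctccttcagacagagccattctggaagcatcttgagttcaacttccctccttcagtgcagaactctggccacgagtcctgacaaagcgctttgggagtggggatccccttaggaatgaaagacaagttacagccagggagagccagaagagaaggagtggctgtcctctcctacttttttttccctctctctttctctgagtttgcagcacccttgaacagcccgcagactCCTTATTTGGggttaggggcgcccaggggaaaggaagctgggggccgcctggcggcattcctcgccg
Cnn1: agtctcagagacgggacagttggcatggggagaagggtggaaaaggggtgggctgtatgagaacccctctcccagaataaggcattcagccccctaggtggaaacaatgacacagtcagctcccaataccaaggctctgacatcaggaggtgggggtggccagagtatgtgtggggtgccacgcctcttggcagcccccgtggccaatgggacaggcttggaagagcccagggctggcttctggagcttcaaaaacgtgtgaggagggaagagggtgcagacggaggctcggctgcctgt
Rgs5: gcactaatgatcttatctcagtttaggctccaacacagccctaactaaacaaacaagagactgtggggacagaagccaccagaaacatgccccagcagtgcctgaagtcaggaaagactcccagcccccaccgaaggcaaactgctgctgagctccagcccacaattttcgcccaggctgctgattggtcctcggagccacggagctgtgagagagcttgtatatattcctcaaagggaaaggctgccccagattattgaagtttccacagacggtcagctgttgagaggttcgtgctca
Pdgfd: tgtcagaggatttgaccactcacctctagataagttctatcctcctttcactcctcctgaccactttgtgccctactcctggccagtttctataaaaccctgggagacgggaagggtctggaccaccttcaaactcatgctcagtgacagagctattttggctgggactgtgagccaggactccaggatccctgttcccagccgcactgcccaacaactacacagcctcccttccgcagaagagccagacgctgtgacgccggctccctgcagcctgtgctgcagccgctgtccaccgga

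In TPM, which is per transcript length, sham hearts ranked Rgs5 (144 ± 15.7, mean ± SD, n = 4) first, then Pdgfb (25.4 ± 10.8), Pdgfrb (17.1 ± 3.7), Pdgfa (12.4 ± 1.16), Pdgfra (8.79 ± 0.48), Myh11 (7.3 ± 2.99), Cspg4 (6.92 ± 1.87), Pdgfd (5.43 ± 0.438), Cnn1 (2.18 ± 0.833) and Pdgfc (1.19 ± 0.256). The hearts of neighbours in this order overlapped for Pdgfb and Pdgfrb, Pdgfrb and Pdgfa, Pdgfra and Myh11, Myh11 and Cspg4, Cspg4 and Pdgfd, and Cnn1 and Pdgfc. At day 1 the order began Rgs5 (101 ± 10.99), Pdgfb (39.6 ± 4.76), Pdgfrb (26.3 ± 2.15) and Pdgfa (21.5 ± 0.382), and none of these neighbours overlapped. Pdgfra (15.4 ± 1.21), Cspg4 (14.2 ± 2.44), Myh11 (10.4 ± 2.64), Cnn1 (10.3 ± 4.44) and Pdgfd (4.88 ± 0.958) followed, each overlapping the next, and Pdgfc (2.43 ± 0.274) came last without overlap. At day 7 it began Rgs5 (258 ± 38.1), Pdgfrb (51.3 ± 8.07) and Pdgfb (47.9 ± 6.58), and Pdgfrb and Pdgfb overlapped, as did Pdgfb and the next gene, Cnn1. Cnn1 (20.5 ± 14.8), Pdgfra (19.6 ± 2.1), Cspg4 (19.5 ± 2.26) and Pdgfa (19.4 ± 1.89) followed at day 7, each overlapping the next. Below them came Myh11 (11.7 ± 2.94) and Pdgfd (10.5 ± 0.708), which overlapped, and Pdgfc (5.36 ± 1.62), which did not overlap Pdgfd.

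Ratios of TPM within a heart do not depend on the scale of the library. The ratios printed are of TPM, and the log2 differences and tests used TPM + 0.1. The ratio of Rgs5 to Pdgfrb was 11.3, 7.32, 7.85 and 8.32 in sham, 3.61, 3.14, 3.91 and 4.87 at day 1 and 3.44, 6.61, 5.56 and 5.1 at day 7. Every AMI heart lay under every sham heart, and the AMI groups overlapped. The mean differed from sham by -1.16 on the log2 scale (exact P = 0.0286, adjusted P = 0.0623) at day 1 and by -0.76 on the log2 scale (exact P = 0.0286, adjusted P = 0.0623) at day 7. With 4 hearts against 4, 0.0286 is the smallest P the 2-sided exact permutation test allows, and none of the 24 tests (8 pairs, 3 comparisons) passed 0.05 after adjustment. The ratio of Rgs5 to Pecam1, an endothelial gene, was 2.19, 1.72, 2.54 and 2.58 in sham, 1.32, 1.14, 1.51 and 1.57 at day 1 and 1.49, 2.2, 1.78 and 1.73 at day 7. It was lower in every day 1 heart than in every sham heart, with a difference of -0.70 on the log2 scale (exact P = 0.0286, adjusted P = 0.0623), and overlapped sham at day 7. The ratio of Rgs5 to Myh11 overlapped between day 1 and sham, with a difference of -1.06 on the log2 scale (exact P = 0.0571, adjusted P = 0.105).

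The ratio of Cspg4 to Pdgfrb was 0.378, 0.451, 0.438 and 0.344 in sham, 0.548, 0.547, 0.595 and 0.456 at day 1 and 0.359, 0.428, 0.401 and 0.343 at day 7. Day 1 hearts lay above all others, and sham and day 7 hearts overlapped. The difference was 0.41 on the log2 scale (exact P = 0.0286, adjusted P = 0.0623) at day 1 against sham and -0.49 on the log2 scale (exact P = 0.0286, adjusted P = 0.0623) between the AMI groups. Pdgfc over Pdgfd was 0.306, 0.203, 0.236 and 0.15 in sham, 0.543, 0.694, 0.456 and 0.373 at day 1 and 0.654, 0.484, 0.351 and 0.529 at day 7, so that AMI hearts lay above all sham hearts and the AMI groups overlapped. It differed from sham by 1.15 on the log2 scale (exact P = 0.0286, adjusted P = 0.0623) at day 1 and 1.11 on the log2 scale (exact P = 0.0286, adjusted P = 0.0623) at day 7. Pdgfra over Pdgfrb was 0.706, 0.485, 0.473 and 0.468 in sham, 0.551, 0.588, 0.529 and 0.681 at day 1 and 0.276, 0.414, 0.436 and 0.437 at day 7. Day 7 hearts lay under all others, with differences of -0.45 on the log2 scale (exact P = 0.0286, adjusted P = 0.0623) from sham and -0.61 on the log2 scale (exact P = 0.0286, adjusted P = 0.0623) from day 1. Pdgfa over Pdgfb was lower in every day 7 heart than in every day 1 heart (-0.42 on the log2 scale (exact P = 0.0286, adjusted P = 0.0623)), and so was Pdgfb over Pecam1 (-0.70 on the log2 scale (exact P = 0.0286, adjusted P = 0.0623)).

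**Figure D4:**
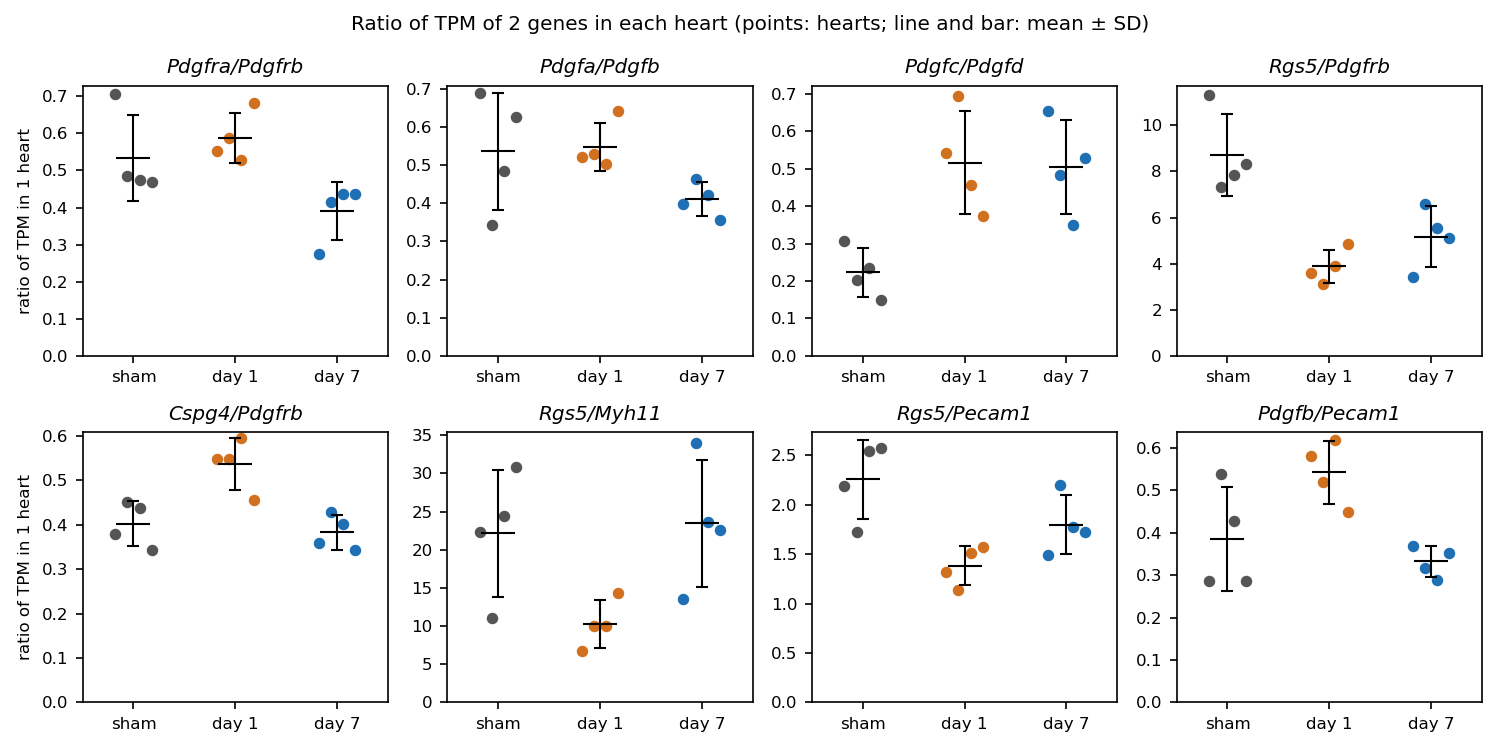
Ratio of the TPM of 2 genes in each heart (y axis, from 0), for 8 pairs, with the mean and SD of each group of 4. Rgs5 over Pdgfrb is at most 6.61 in all 8 AMI hearts and at least 7.32 in all 4 sham hearts.

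The 9 genes whose products cleave, bind or resemble PDGF proteins were all tested. At day 1 against sham, 5 were higher, 0 were lower and 4 were not called; at day 7, 6 were higher, 0 were lower and 3 were not called. In shares of the genes tested, the list was 55.6% higher and 0% lower at day 1 (all genes: 22.0% and 19.9%) and 66.7% higher and 0% lower at day 7 (all genes: 30.9% and 28.4%). Their median log2 FC was 0.55 at day 1 and 1.51 at day 7 against sham, beside -0.01 and 0.03 over all genes. Plat encodes tissue plasminogen activator, which cleaves PDGF-C, and Plau and St14 encode proteases that cleave PDGF-D. Plau rose at day 1 (log2 FC 1.87, adjusted P = 5.72e-05) and day 7 (log2 FC 1.73, adjusted P = 2.01e-05), and so did St14 (log2 FC 1.04, adjusted P = 0.0184 and log2 FC 2.38, adjusted P = 1.53e-05), whose highest group mean was 2.28 CPM. The day 1 call of St14 was lost on log2(TPM + 1) (0.13, adjusted P = 0.602), on log2(TPM + 0.1) (0.53, adjusted P = 0.33), and without sham heart 3 or day 1 heart 4 (0.75 to 0.95, adjusted P 0.0525 to 0.0601). Plat rose at day 1 (log2 FC 0.68, adjusted P = 0.00378) and at day 7 (log2 FC 1.51, adjusted P = 2.59e-06), and so did Sparc, whose product binds PDGF-B (log2 FC 0.77, adjusted P = 0.00107 and log2 FC 2.75, adjusted P = 1.62e-08). The PDGF receptor-like gene Pdgfrl read 1.25, 2.26, 2.86 and 3.11 CPM in sham, 2.33, 2.72, 2.88 and 1.8 at day 1 and 31.4, 25.6, 22.1 and 30.95 at day 7. Its day 7 hearts lay above all others, and Pdgfrl rose at day 7 (log2 FC 3.53 ± 0.23 (SE), adjusted P = 4.17e-08) and was not called at day 1.

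Of the 40 genes of PDGF receptor signalling, 39 were tested. At day 1 against sham, 12 were higher, 6 were lower and 21 were not called; at day 7, 13 were higher, 11 were lower and 15 were not called; and between the AMI groups, 10 were higher, 11 were lower and 18 were not called. In shares of the genes tested, the list was 30.8% higher and 15.4% lower at day 1 (all genes: 22.0% and 19.9%), 33.3% higher and 28.2% lower at day 7 (all genes: 30.9% and 28.4%), and 25.6% higher and 28.2% lower between the AMI groups (all genes: 24.2% and 22.8%). The median log2 FC was 0.06 at day 1 and 0.10 at day 7 against sham. The kinase gene Src rose at day 1 (log2 FC 0.82, adjusted P = 0.00384) and day 7 (log2 FC 1.34, adjusted P = 3.88e-05), and so did the receptor phosphatase gene Ptprj (log2 FC 0.82, adjusted P = 0.00059 and log2 FC 1.02, adjusted P = 3.37e-05). Ptpn1 rose at day 1 (log2 FC 0.79, adjusted P = 0.000975) and day 7 (log2 FC 0.76, adjusted P = 0.000571). Stat3 rose at day 1 (log2 FC 0.71, adjusted P = 0.00202) and was not called at day 7, though with library sizes alone (0.41, adjusted P = 0.0357) and on both TPM scales (adjusted P 0.00801 to 0.0118) it was higher there too. Pik3r1, a regulatory subunit of PI3-kinase, fell at day 1 (log2 FC -0.57, adjusted P = 0.011) and day 7 (log2 FC -0.94, adjusted P = 0.000167). On the TPM scales both calls were lost (adjusted P 0.539 to 0.555 at day 1 and 0.159 to 0.18 at day 7), and the day 1 call also with library sizes alone (-0.29, adjusted P = 0.154).

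Of 17 further pericyte genes, 17 were tested. At day 1 against sham, 1 was higher, 6 were lower and 10 were not called; at day 7, 9 were higher, 2 were lower and 6 were not called; and between the AMI groups, 12 were higher, 0 were lower and 5 were not called. In shares of the genes tested, the list was 5.88% higher and 35.3% lower at day 1 (all genes: 22.0% and 19.9%), 52.9% higher and 11.8% lower at day 7 (all genes: 30.9% and 28.4%), and 70.6% higher and 0% lower between the AMI groups (all genes: 24.2% and 22.8%). The median log2 FC was -0.15 at day 1 and 0.39 at day 7 against sham and 0.66 between the AMI groups. At day 1, the potassium channel subunit gene Abcc9 fell (log2 FC -0.91, adjusted P = 0.000323), as did Colec11 (log2 FC -0.89, adjusted P = 0.00158) and P2ry14 (log2 FC -0.67, adjusted P = 0.0351), while Mcam, an adhesion molecule of mural and endothelial cells, rose (log2 FC 1.12, adjusted P = 0.000575). At day 7, Foxs1 (log2 FC 1.97, adjusted P = 0.000202), Mcam (log2 FC 1.78, adjusted P = 4.28e-06), the guanylate cyclase gene Gucy1a1 (log2 FC 1.44, adjusted P = 3.32e-07) and Tbx18 (log2 FC 1.23, adjusted P = 3.5e-05) rose; Foxs1, Gucy1a1 and Tbx18 were not called at day 1 on any scale. At day 7 Abcc9 was lower as well (log2 FC -1.09, adjusted P = 2.26e-05), the list's 1 DEG that was lower, and Colec11 and P2ry14 were not called. With library sizes alone (0.46, adjusted P = 0.0443) and on both TPM scales (adjusted P 0.012 to 0.0179) Colec11 was higher at day 7. Kcnj8, which encodes the channel pore that pairs with the Abcc9 subunit and was chosen after its values were seen, was lower at day 1 (log2 FC -0.50, adjusted P = 0.0136) and day 7 (log2 FC -0.42, adjusted P = 0.0208). Its day 1 call was lost with library sizes alone (-0.24, adjusted P = 0.257) and on both TPM scales (adjusted P 0.551 to 0.571). Its day 7 sign turned on the TPM scales (0.16, adjusted P = 0.438; 0.17, adjusted P = 0.457), and that call was lost with library sizes alone (-0.040, adjusted P = 0.845) and without sham hearts 2, 3 or 4 or day 7 hearts 2 or 4 (-0.40 to -0.34, adjusted P 0.0503 to 0.0694). The P2ry14 call was lost with library sizes alone (-0.40, adjusted P = 0.197), on both TPM scales (adjusted P 0.208 to 0.213), and without sham hearts 3 or 4 or day 1 hearts 1, 2 or 3 (-0.67 to -0.50, adjusted P 0.0657 to 0.126). Abcc9 is also carried by cardiomyocytes, and 10 of 11 cardiomyocyte markers were lower at each time; their part in its fall was not tested.

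All 17 further smooth muscle genes were tested. At day 1 against sham, 2 were higher, 2 were lower and 13 were not called; at day 7, 10 were higher, 3 were lower and 4 were not called; and between the AMI groups, 7 were higher, 2 were lower and 8 were not called. In shares of the genes tested, the list was 11.8% higher and 11.8% lower at day 1 (all genes: 22.0% and 19.9%), 58.8% higher and 17.6% lower at day 7 (all genes: 30.9% and 28.4%), and 41.2% higher and 11.8% lower between the AMI groups (all genes: 24.2% and 22.8%). The median log2 FC was 0.17 at day 1 and 0.93 at day 7 against sham. At day 1, Ramp1 fell (log2 FC -1.33, adjusted P = 0.00209), Smtn fell (log2 FC -0.29, adjusted P = 0.0254), and Cald1 (log2 FC 0.91, adjusted P = 0.000419) and Tpm2 (log2 FC 0.80, adjusted P = 0.0471) rose. The Smtn call was lost with library sizes alone (-0.020, adjusted P = 0.898), on both TPM scales (adjusted P 0.504 to 0.521), with no filter (-0.27, adjusted P = 0.0544), and without sham hearts 2, 3 or 4 or day 1 heart 2 (-0.28 to -0.21, adjusted P 0.0555 to 0.082). The Tpm2 call was lost with DESeq2 (0.80, adjusted P = 0.0655) and without sham hearts 1, 3 or 4, day 1 hearts 1, 2 or 3 or day 7 heart 2 (0.72 to 0.80, adjusted P 0.0567 to 0.112). At day 7, Actg2 (log2 FC 3.81, adjusted P = 0.0013), Tagln (log2 FC 2.26, adjusted P = 0.000554), Aoc3 (log2 FC 1.57, adjusted P = 1.11e-06) and Cald1 (log2 FC 1.42, adjusted P = 3.22e-06) rose, of which Actg2, Tagln and Aoc3 were not called at day 1. Tagln was higher at day 1 on both TPM scales (adjusted P 0.0412 to 0.0478), with only the groups compared (0.83, adjusted P = 0.0265) and without day 7 heart 1 (0.83, adjusted P = 0.0168), and Aoc3 was on both TPM scales (adjusted P 0.0415 to 0.0466) and with library sizes alone (0.43, adjusted P = 0.0456). Tpm2 rose at day 7 too (log2 FC 1.34, adjusted P = 0.0016). Smtn was not called at day 7, but was higher with library sizes alone (0.45, adjusted P = 0.00266) and on both TPM scales (adjusted P 0.0171 to 0.024). Ramp1 was lower at day 7 as well (log2 FC -0.92, adjusted P = 0.011), a call lost with library sizes alone (-0.53, adjusted P = 0.115), on both TPM scales (adjusted P 0.25 to 0.287) and without sham heart 4 (-0.61, adjusted P = 0.05). Tagln, a smooth muscle actin-binding protein, read 271, 81.1, 58.1 and 68.1 CPM in the day 7 hearts, with heart 1 highest, as for Cnn1.

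Of 13 SRF cofactor and Notch pathway genes, which control smooth muscle gene programs, 3 were higher, 3 were lower and 7 were not called at day 1, and 4 were higher, 1 was lower and 8 were not called at day 7. In shares of the genes tested, the list was 23.1% higher and 23.1% lower at day 1 (all genes: 22.0% and 19.9%) and 30.8% higher and 7.69% lower at day 7 (all genes: 30.9% and 28.4%). The median log2 FC was 0.12 at day 1 and 0.15 at day 7 against sham. At day 1, Hey1 (log2 FC -0.75, adjusted P = 0.042) and Klf4 (log2 FC -0.49, adjusted P = 0.03) fell and Mrtfa (log2 FC 0.61, adjusted P = 0.00287) and Rbpj (log2 FC 0.40, adjusted P = 0.00109) rose. The Hey1 call was lost with the replicate number as a block (-0.66, adjusted P = 0.0676), with only the groups compared (-0.75, adjusted P = 0.0731), with library sizes alone (-0.50, adjusted P = 0.183), on both TPM scales (adjusted P 0.408 to 0.442), and without sham hearts 2 or 3, day 1 hearts 1, 2 or 4 or day 7 hearts 2 or 4 (-0.76 to -0.34, adjusted P 0.0517 to 0.197). The Klf4 call was lost with library sizes alone (-0.22, adjusted P = 0.333), on both TPM scales (adjusted P 0.521 to 0.53), and without sham heart 2 or day 1 hearts 3 or 4 (-0.44 to -0.37, adjusted P 0.0768 to 0.0888). At day 7, the Notch target Heyl (log2 FC 1.09, adjusted P = 5.45e-05), Mrtfa (log2 FC 1.02, adjusted P = 1.89e-05) and the Notch ligand gene Jag1 (log2 FC 0.88, adjusted P = 7.6e-06) rose, of which Heyl and Jag1 were not called at day 1. Jag1 was higher at day 1 with library sizes alone (0.49, adjusted P = 0.00721) and on both TPM scales (adjusted P 0.0214 to 0.0255). Rbpj rose at day 7 too (log2 FC 0.37, adjusted P = 0.00085), and Hey1 and Klf4 were not called, though Klf4 was higher on log2(TPM + 1) (0.51, adjusted P = 0.0454). Srf was not called at day 1, was higher there on both TPM scales (adjusted P 0.0378 to 0.0481), and at day 7 fell (log2 FC -0.44, adjusted P = 0.0171), but the sign turned on the TPM scales (0.12, adjusted P = 0.533; 0.12, adjusted P = 0.552), and the call was lost with library sizes alone (-0.046, adjusted P = 0.807) and without sham heart 2 or day 7 heart 2 (-0.37 to -0.34, adjusted P 0.0563 to 0.0591). Of 95 promoters matched for 71 of the 96 genes on the 5 pathway lists, the CArG box was in 2 (2.11%; all promoters 1.63%), of Myl9 and Srf, and GTGGGAA in 8 (8.42%; all promoters 6.38%), of Colec11, Gab1, Gucy1a1, Hey2, Nck1, Ramp1, Rasa1 and Tbx18. Promoters on chromosome 18 were left out of this match as well, but not of the shares over all promoters.

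**Figure D5:**
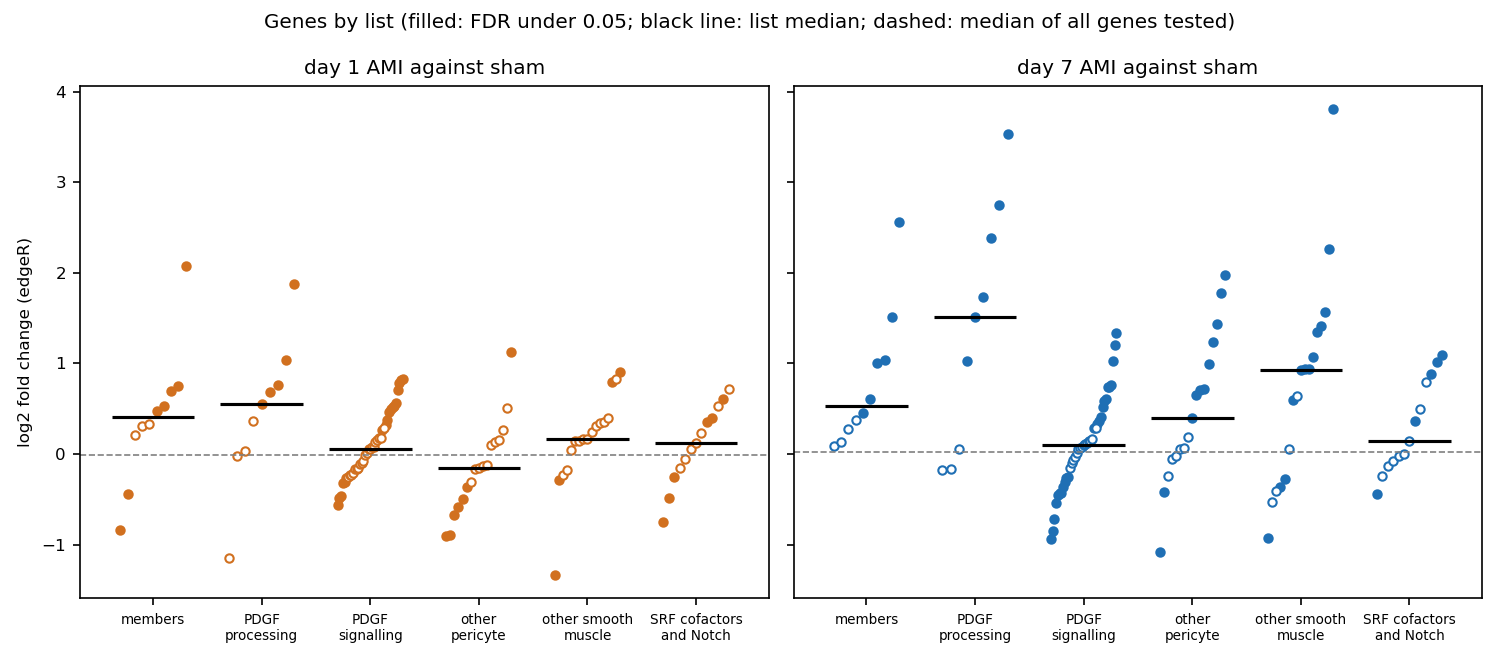
Log2 fold change (y axis, edgeR) of each gene in 6 lists at day 1 (left) and day 7 (right) against sham; filled points passed an FDR of 0.05, the black line is the list median and the dashed line the median of all genes. The list medians run from -0.15 (other pericyte genes) to 0.55 at day 1 and from 0.10 to 1.51 at day 7 (PDGF processing and binding).

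Each member's 3 nearest protein-coding genes were sought by the root mean square (RMS) difference of centred log2 CPM over the 12 hearts, among the 13813 that were tested. For Rgs5 these were Dync2li1, Vmac and Asah2 (0.131 to 0.139), and for Pdgfd Fam92a, Tmem44 and Car7 (0.143 to 0.151). Among the members themselves, the nearest pair was Pdgfd and Rgs5 (0.22), followed by Pdgfb and Myh11 (0.228) and Pdgfrb and Cspg4 (0.244). Pdgfa lay nearest to Nus1, Rps6 and Set (0.0655 to 0.0737), Pdgfb to Psd, Adcy4 and Jak3 (0.119 to 0.154), and Pdgfc to Cdr2l, Fat1 and Adam19 (0.153 to 0.17). Pdgfra lay nearest to Rap1b, Sorl1 and Slc23a2 (0.108 to 0.119) and Pdgfrb to Mov10, Epb41l2 and Plscr3 (0.119 to 0.125). Cspg4 lay nearest to Pcdh1, Adss and Il17rc (0.147 to 0.174), Myh11 to Adcy4, Erf and Rgs12 (0.203 to 0.222), and Cnn1, with the loosest match, to Lif, Aldh1a3 and Ttc9 (0.457 to 0.495).

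Markers of other cells moved as well, and their part in the members' changes was not tested. Their counts stand beside 22.0% higher and 19.9% lower at day 1 and 30.9% and 28.4% at day 7 over all genes. Fibroblast markers (14 of 14 tested) were 5 higher and 5 lower at day 1 and 10 higher and 2 lower at day 7. Their summed TPM was 1228, 1489, 1412 and 1451 in sham, 1261, 1706, 1344 and 1777 at day 1 and 6357, 4894, 4069 and 5297 at day 7, with Gsn most abundant in sham and Col3a1 at day 7. The 8 myofibroblast markers were 6 higher and 0 lower at day 1 and 8 higher and 0 lower at day 7, and summed to 25.7, 31.97, 33.1 and 32.7 TPM in sham, 139.5, 217, 131 and 121 at day 1 and 2686, 1790, 1266 and 1690 at day 7. Fn1 was the most abundant of them in sham and Postn at day 7, and day 7 heart 1, with the highest Cnn1 and Pdgfrb, had the highest sum. Pdgfra is itself a fibroblast gene.

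Endothelial markers (14 of 14 tested) were 0 higher and 4 lower at day 1 and 8 higher and 2 lower at day 7. They summed to 894, 1178, 1013 and 1153 TPM in sham, 1045, 1166, 1093 and 1141 at day 1 and 1702, 1546, 1688 and 1797 at day 7, and Ly6c1 was the most abundant throughout. Cardiomyocyte markers (11) were 0 higher and 10 lower at day 1 and 0 higher and 10 lower at day 7, and their summed TPM was 68840, 70010, 77610 and 78630 in sham, 56920, 51600, 60080 and 64330 at day 1 and 50860, 43620, 54070 and 50100 at day 7. Myl2 was their most abundant gene in sham. Macrophage and leukocyte markers (11) were 9 higher and 0 lower at day 1 and 11 higher and 0 lower at day 7. They summed to 392, 546, 337 and 286 TPM in sham, 735, 1005, 684 and 903 at day 1 and 1976, 1357, 1211 and 1865 at day 7, with Lyz2 most abundant.

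Platelets store PDGF proteins, and of 9 platelet markers 6 were tested, 1 higher and 3 lower at day 1 and 0 higher and 1 lower at day 7. They summed to 57.5, 82.2, 55.3 and 42.4 TPM in sham, 149, 159, 110.2 and 155 at day 1 and 107, 67.3, 63.6 and 90.4 at day 7, and Pf4, which macrophages also carry, was the most abundant. Erythroid markers (7 listed, 6 tested) were 0 higher and 4 lower at day 1 and 0 higher and 4 lower at day 7, with sums of 3636, 15180, 1617 and 1840 TPM in sham, 1645, 2207, 2542 and 2498 at day 1 and 3191, 1172, 2516 and 4821 at day 7 and Hbb-bs most abundant. Atrial markers (6) were 1 higher and 2 lower at day 1 and 1 higher and 2 lower at day 7 and summed to 173, 453, 375 and 1557 TPM in sham, 2936, 2846, 2293 and 1212 at day 1 and 3611, 4593, 4789 and 3418 at day 7, mostly Nppa. Mesothelial and epicardial markers (6) were 2 higher and 1 lower at day 1 and 3 higher and 0 lower at day 7, with sums of 7.07, 14.8, 6 and 7.26, 19.5, 12.8, 8.23 and 7.24 and 23.02, 28.4, 19.3 and 28.3 TPM in the same order, and Wt1 most abundant in sham. Skeletal muscle markers (6, 3 tested) were 1 higher and 0 lower at day 1 and 1 higher and 1 lower at day 7, and summed to 5.47, 7.71, 5.95 and 5.32, 6.98, 8.07, 6.69 and 7.85 and 9.01, 13.9, 11.4 and 8.46 TPM, with Tnni2 most abundant in sham.

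Lung markers (6 listed, 1 tested) stood apart in 2 day 7 hearts. Sftpc, the surfactant gene of lung alveoli, had 0 counts in all 8 sham and day 1 hearts and 34, 0, 132 and 0 counts in day 7 hearts 1 to 4. Sftpb, Sftpa1 and Cldn18 were also at 0 in those 8 hearts, and Scgb1a1 was at 0 in all 12. Ager, the marker that was tested, was not called at day 1 and was higher at day 7. The 6 markers summed to 0.23, 0.16, 0.56 and 0.08 TPM in sham, 0.16, 0.45, 0.23 and 0.36 at day 1 and 4.92, 0.96, 17.3 and 1.62 at day 7. Lung holds pericytes and fibroblasts too. The part of lung tissue in the members' day 7 values was not tested.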

How the data were processed

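Whole-heart RNA was sequenced in 12 libraries. The authors deposited a raw count per gene and, separately, TPM. The submitters' processing notes name CASAVA 1.8, STAR 2.4.0j, RSEM and the mm10 build; the counting tool and strand are not given in the sources used here. Gene positions came from GENCODE M21 (GRCm38). Counts were tested in R 4.3.3 with edgeR 4.0.16 (TMM, filterByExpr, quasi-likelihood F test, 1 fit of all 12 hearts, Benjamini-Hochberg over 15306 genes). Within-heart ratios are printed from TPM, while their log2 differences and exact 2-sided permutation tests (scipy 1.17.1) used TPM + 0.1. Alternatives were DESeq2 1.42.0, limma 3.58.1 on log2 TPM, other scalings, no filter, a replicate block and leaving out each heart. In 1 set of simulated counts with 200 changed genes among 15306, the edgeR fit called 192 of the 200 in the right direction and 12 other genes. The 200 were drawn from well-counted genes and changed by at least 2-fold. Smaller changes, such as those of Pdgfa and Pdgfd, and a shift of scale between groups were not simulated. From each pathway list, up to 4 called genes were named at each time against sham, by size of fold change, among those reaching a group mean of 1 CPM; their calls at the other time were added later, as were Kcnj8 and Ager, after the values were seen. Mrtfa is listed as Mkl1 in the files, and Itgam stands on 2 gene IDs, of which the one with more counts was used. The members and lists were chosen with earlier results of these data known.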

Additional observations from a re-analysis of the deposited data

Results flagged for a closer look

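Chance puts about 1 in 20 groups of 4 past the limit for a heart that stands apart, and 4 of 102 groups passed it. Cnn1 in day 1 heart 4 had a log2 CPM of 1.96, under the 3.52 to 3.85 of the other day 1 hearts. The log2 ratio of Pdgfra to Pdgfrb in sham heart 1 was -0.50, above the -1.09 to -1.04 of the other sham hearts. The same ratio in day 7 heart 1 was -1.85, under the -1.27 to -1.19 of the other day 7 hearts. The log2 summed TPM of the myofibroblast markers in sham heart 1 was 4.69, under the 5.0 to 5.05 of the other sham hearts.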

How the results depend on the processing

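Of 100 fold changes of members and single genes, called or not, 98 kept their direction and their side of the threshold with RLE size factors, 98 with DESeq2, 99 with no filter, 96 of 99 with only the groups compared (Ager failed its filter at day 1), 73 with library sizes alone (chosen after seeing the data) and 65 and 65 with limma on log2(TPM + 1) and log2(TPM + 0.1). With the replicate number as a block, 97 did; Hey1 lost its day 1 call (-0.66, adjusted P = 0.0676) and turned to 0.022 at day 7, and the antisense gene 6330403L08Rik turned to -0.0006 at day 1. The latter turned to -0.0033 with RLE size factors, and Stat3 at day 7 to -0.0081 with RLE size factors and -0.0086 with DESeq2. Pairing by replicate number was not used: residual correlations of hearts with the same number ran from -0.244 to 0.229. None of the 24 ratios passed 0.05 after adjustment, here or with TPM + 1 or CPM, which says nothing about their stability.

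With library sizes alone, members lower at day 1 numbered 1 and member DEGs higher 2. All genes numbered 6289 higher, 1061 lower, 1764 DEGs higher and 217 DEGs lower. At day 7 against sham they numbered 8237 higher, 1659 lower, 3633 DEGs higher and 318 DEGs lower. Between the AMI groups, 2 members were DEGs that were higher, beside 1626 of all genes. Genes that were lower numbered 2168, and Myh11 turned to 0.060. Genes not called on the TMM scale turned to 0.14, 0.21 and 0.23 (Gucy1a1, Heyl and Ager, day 1) and to 0.30 and 0.37 (Hey1 and Klf4, day 7).

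On log2(TPM + 1), 1 member was lower at day 1, with 6187 genes higher, 736 lower and 63 DEGs lower. At day 7 against sham, 10 members were higher, with 9404 genes higher, 1004 lower and 111 DEGs lower, and Srf and Kcnj8 turned to 0.12 and 0.16. Between the AMI groups, 0 members, 1278 genes and 130 DEGs were lower, and Myh11 turned to 0.16. Genes not called on the TMM scale turned to 0.21, 0.27 and 0.057 (Gucy1a1, Heyl and Ager, day 1) and to 0.55 and 0.51 (Hey1 and Klf4, day 7).

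On log2(TPM + 0.1), 1 member was lower and 2 were DEGs that were higher at day 1. All genes numbered 6348 higher, 726 lower, 1739 DEGs higher and 145 DEGs lower. At day 7 against sham, 10 members were higher, with 9433 genes higher, 949 lower, 4147 DEGs higher and 188 DEGs lower, and Srf and Kcnj8 turned to 0.12 and 0.17. Between the AMI groups, 0 members were lower and 3 were DEGs that were higher. Among all genes, 1721 were DEGs that were higher, 1148 were lower and 202 were DEGs that were lower, and Myh11 turned to 0.18. Genes not called on the TMM scale turned to 0.25, 0.30 and 0.27 (Gucy1a1, Heyl and Ager, day 1) and to 0.63 and 0.54 (Hey1 and Klf4, day 7). These scales omit the TMM factors, and the cause of each change was not tested.

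With 1 heart left out, members lower at day 1 numbered 1 to 2 and member DEGs higher at day 7 2 to 4. Signs turned for Myh11 at day 7 against sham (-0.045 to 0.41) and, between the AMI groups, for Pdgfb (-0.062 to 0.090), Myh11 (-0.25 to 0.11) and Cnn1 (-0.32 to 0.73). Among genes not called, they turned at day 1 for Pdgfrl (-0.17 to 0.18), Gucy1a1 (-0.18 to 0.014), Heyl (-0.18 to 0.055), Ager (-0.35 to 0.62) and 6330403L08Rik (-0.051 to 0.061), and at day 7 for Stat3 (-0.13 to 0.17), Colec11 (-0.053 to 0.18), P2ry14 (-0.12 to 0.22), Hey1 (-0.31 to 0.34) and Klf4 (-0.12 to 0.080).

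With 4 hearts a group, a value that missed the threshold does not show that groups were alike. Whole hearts mix many cell types, remote and infarcted muscle included, and only RNA was measured. Pdgfc and Cnn1 rest on the fewest counts among the members. For reads in the overlap of Pdgfa with its antisense gene, the gene they were assigned to is not known. The day on which sham hearts were taken is not given per heart, so time after surgery and infarction cannot be told apart in comparisons with sham.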
